A study of Mus musculus with 4 samples.

Results

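The mouse reference assembly mm10 holds, besides the chromosomes, short pieces of sequence (contigs) that were never set in place. Contigs named "random" are known to belong to a chromosome but not where, and contigs named "Un" have no chromosome. All such contigs except those named for X or Y were taken by their names, which gave 34 of the 57 sequences named in the deposited methylation tables. They held 11164 CpGs listed in at least 1 of the 4 libraries, of which 4210, on 27 contigs, were listed in all 4. Of the 34 contigs, 22 were unplaced, and 4 each were assigned to chromosomes 1, 4 and 5.

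The series profiled hippocampal microglia, the macrophages that live in brain tissue, by whole-genome bisulfite sequencing in control mice and in mice labelled FGR, in a series titled for intrauterine growth restriction. There were 2 control and 2 FGR libraries, all from mice of the genotype Tmem119-tdTomato+/- (one copy of a red fluorescent marker at Tmem119, a gene used to mark microglia, in controls as well) at 3 weeks postpartum. The sources used here do not state how growth restriction was brought about, how the cells were isolated, or whether a library came from 1 animal or a pool. Nothing says that replicates are separate animals, so the p-values measure only the spread between these libraries, which may be technical.

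Cytosine methylation at CpG sites keeps much of the repeated part of the mouse genome in closed chromatin, and the satellite repeats around the centromeres are usually heavily methylated in body cells. Satellite DNA is largely missing from the assembly, so reads from many copies collect on the few copies that were assembled. Bisulfite turns unmethylated cytosine into a base read as T, so a read from a copy that has lost a CpG by mutation also counts as unmethylated, and copies within such a pile cannot be told apart. No genome sequence was used here, so repeats were recognised by the spacing of their CpGs only.

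The contigs held 0.0889%, 0.0903%, 0.0944% and 0.0782% of the listed CpGs in control libraries 1 and 2 and FGR libraries 1 and 2 (the order used for all sets of values below), but 1.70%, 1.58%, 1.59% and 1.08% of the reads. In all, 1059754, 1057521, 788816 and 989593 reads fell on listed contig CpGs. The tables list only cytosines with at least 5 reads, and mean coverage over autosomal CpGs, both strands summed, was 7.25 to 8.41 reads. At the less methylated end of each gene, the microglial genes P2ry12, Cx3cr1, Spi1, Tmem119 and Csf1r averaged between 1.99% and 21.2% over the libraries, and Sall1 stood at 57.5%. The astrocyte genes Gfap, Aqp4 and Slc1a3 lay between 43.2% and 82.1%, and the oligodendrocyte genes Mog and Mbp at 79.8% and 61.0%. Of the neuronal genes, Rbfox3 stood at 70.3%, while Snap25 and Syt1 were low (4.08% and 2.86%).

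Nearly all contig reads came from a single unplaced contig. chrUn_JH584304, with 1704 listed CpGs, took 93.8%, 92.8%, 92.6% and 91.2% of the contig reads. Its mean coverage per CpG was 593, 581, 438 and 540 reads, which is 77.4, 74.4, 60.5 and 64.2 times the autosomal mean of the same library. The other 33 contigs together stood at 1.58, 1.64, 1.72 and 1.52 times the autosomal mean.

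chrUn_JH584304 fell into 2 unlike stretches. Up to position 68000 its CpGs lay at a mean spacing of 103 bp. From 68001 to the last listed CpG at 114437, a stretch of 46437 bp with 1042 CpGs, the mean spacing was 44.5 bp and the CpGs recurred with a period of 234 bp, the length of the unit of the mouse major satellite. In that stretch 500 pairs of CpGs lay exactly 234 bp apart, the most frequent distance up to 1000 bp on the contig. The median over distances within 34 bp of it was 6.5 pairs. The next highest peaks lay at 468, 701 and 935 bp, with lower ones at other distances. Before that stretch, 7 pairs lay 234 bp apart against a median of 8.5. In windows of 2000 bp, the share of CpGs with a partner 234 bp away (within 2 bp) was 75.7% to 97.8% in the 24 windows of the array and 0 to 41.9% in the 34 windows before it. The boundary was set from this spacing after the data were seen, without the methylation levels.

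**Figure D1:**
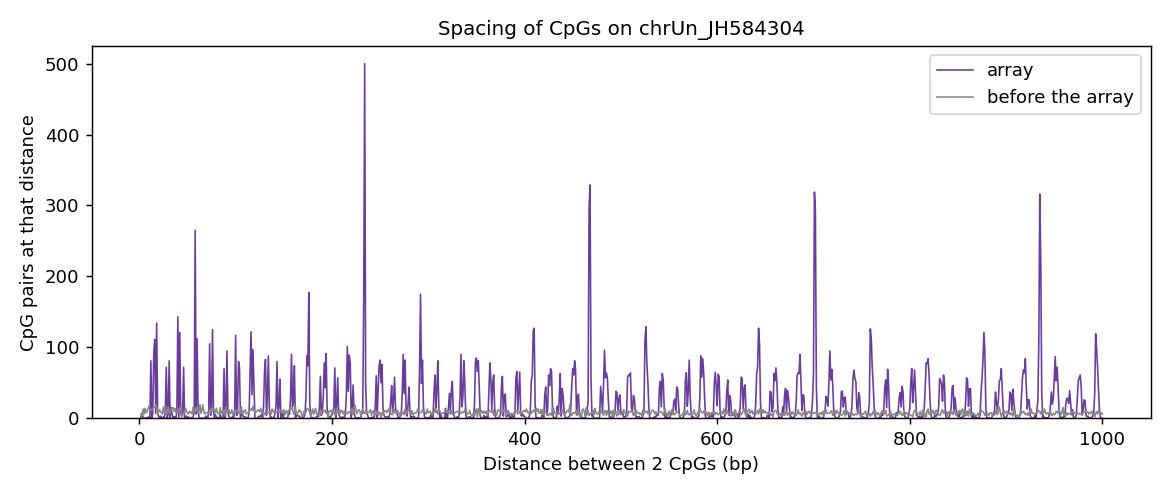
Number of pairs of CpGs (y axis) at each distance in bp (x axis) on chrUn_JH584304, for the repeat array (purple) and the stretch before it (grey). The array has peaks at 234, 468, 701 and 935 bp, and the stretch before it has none.

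The array was evenly and highly methylated. Its level was 81.4% and 81.6% in the control libraries and 81.3% and 81.5% in the FGR libraries. The groups overlapped, with a difference (FGR minus control) of -0.0948 percentage points between 81.5% ± 0.170 in controls and 81.4% ± 0.141 in FGR (SD, n = 2 each; exact permutation p = 0.667, where 0.333 is the smallest that 2 against 2 allows). Its 24 windows ran from 78.9% to 85.3% in the mean of the 4 libraries. Among the 1004 array CpGs listed in all 4 libraries, 775 were at 80% or above, 214 lay from 20% to 80% and 15 were under 20%.

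The stretch before the array was less methylated and far less even. Its level was 63.8%, 64.2%, 62.5% and 62.9%, with a difference from the autosomal level of -12.7 to -12.3 points. Its windows ran from 17.0% to 86.5% in the mean of the 4 libraries. Of its 643 CpGs in all 4 libraries, 197 were at 80% or above, 376 lay from 20% to 80% and 70 were under 20%. Coverage in this stretch was 25.2, 26.2, 24.6 and 27.7 times the autosomal mean.

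**Figure D2:**
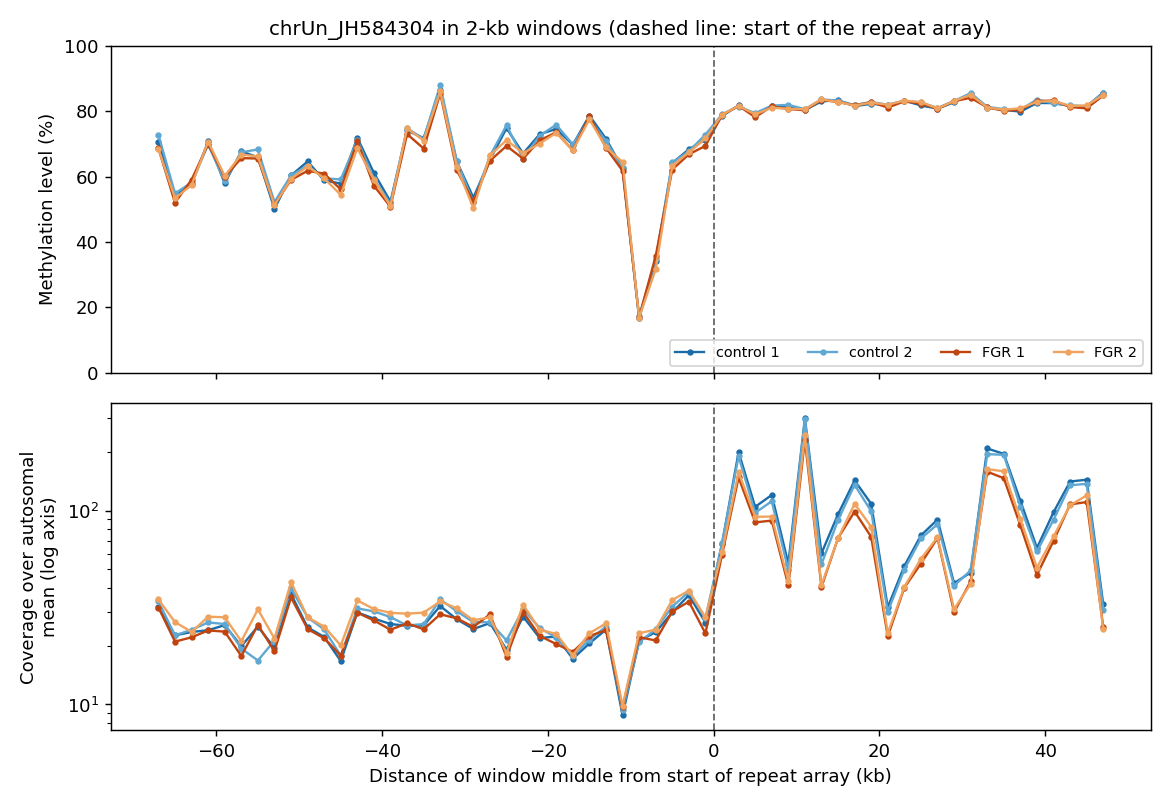
Methylation level in percent (upper panel) and coverage relative to the autosomal mean of the same library on a log axis (lower panel) in 2000-bp windows of chrUn_JH584304, by distance in kb from the start of the repeat array, for the 4 libraries. Single libraries lie between 78.2% and 85.7% in the windows of the array and between 16.7% and 88.0% in the windows before it.

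A single run of low methylation stood out before the array. It covered 53 CpGs over 1356 bp (chrUn_JH584304:59026-60381) at a mean spacing of 26.1 bp, denser than either stretch as a whole. It was delimited by its level (consecutive CpGs averaging under 40%), so its depth is a description without a test. Its level was 12.6%, 13.0%, 13.7% and 12.9%, and 43 of the 53 CpGs averaged under 20%. The 1500 bp on either side averaged 52.0% and 49.3%. It held the 1 tile under 20% among the 563 contig tiles tested below. The RefSeq gene table of GRCm38.p6 places 17 genes on no chromosome and names no contig, so neither this run nor any other contig CpG could be assigned to a gene. One of those, the pseudogene Pisd-ps3 at positions 52674 to 59689 of an unnamed sequence, would end within the run if it lay on chrUn_JH584304, but 2 unplaced contigs have CpGs past that position and the table does not say which holds it.

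**Figure D3:**
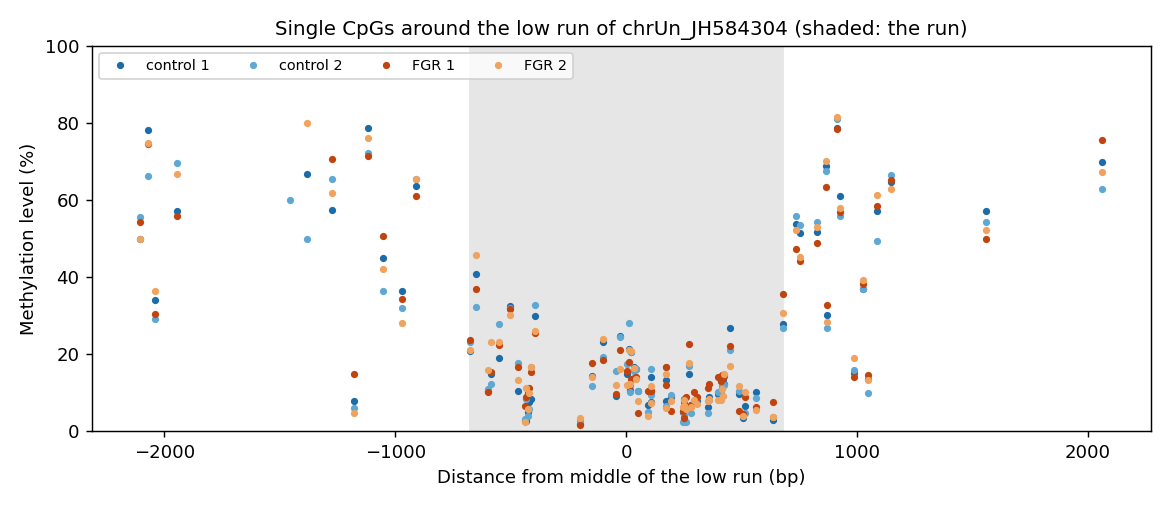
Methylation level in percent of single CpGs around the low run of chrUn_JH584304, by distance in bp from its middle, for the 4 libraries; the run is shaded. The run lies at 12.6% to 13.7% per library, between flanks at 52.0% and 49.3%.

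The reads of the array came mostly from the forward strand. On autosomes the forward strand gave 50.6% to 50.9% of the reads, and before the array 48.7% to 49.6%. In the array it gave 83.5% and 82.6% in the control libraries and 88.7% and 87.1% in the FGR libraries, with both FGR values above both controls (exact permutation p = 0.333). Levels on the 2 strands were close: 81.5% and 80.8% on the forward and reverse strand of control library 1, and 81.3% and 81.2% in FGR library 1. Both strands were listed for 80.02%, 78.9%, 70.2% and 73.3% of the array CpGs, against 96.4% to 97.7% before the array.

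Both FGR libraries had a lower coverage of the array than either control. Relative to the autosomal mean it was 110.5 and 105.3 in the control libraries and 83.2 and 87.5 in the FGR libraries, 108 ± 3.66 against 85.4 ± 3.07 (SD, n = 2 each; ratio 0.791; exact permutation p = 0.333). The groups did not overlap, but this p is the smallest the design can give and misses 0.05. The autosomal mean covers only cytosines with at least 5 reads, so it follows the depth of a library only in part. It was 7.66, 7.80, 7.25 and 8.41 reads, with 60643039, 65345730, 48378476 and 89883983 autosomal reads. On the forward strand of the array the coverage relative to the same strand of the autosomes was 107, 103, 82.8 and 95.8, and on the reverse strand it was 26.8, 27.6, 15.2 and 19.3. Before the array the groups overlapped, at 25.7 ± 0.684 and 26.1 ± 2.17 (exact permutation p = 1). The coverage of the array over that of the rest of the same contig, which needs no autosomal reference, was 4.39, 4.03, 3.38 and 3.16. Whether this reflects the cells or the making of the libraries was not tested.

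Repeats of the same period on a placed chromosome had levels close to those of the array. Placed autosomal windows of 10000 bp with at least 50 CpGs and a mean coverage of at least 200 reads were searched after the array had been seen, and 8 were found. On chromosome 9, the 4 windows from 3000001 to 3040000 had 5.95 to 6.84 times as many CpG pairs near 234 bp as at nearby distances, against 6.97 in the array and 1.04 before it. Their level was 80.2%, 80.4%, 80.1% and 80.3%, which was 1.19 to 1.25 points under the array in each library. Their coverage was 283, 275, 227 and 231 times the autosomal mean, an FGR to control ratio of 0.820 (exact permutation p = 0.333). In 6 of the 8 windows both FGR values lay below both controls: the 4 on chromosome 9, 1 on chromosome 14 with a pair ratio of 4.59, and 1 on chromosome 2 with a pair ratio of 1.83. The 4 on chromosome 9 adjoin each other, and windows share their libraries, so they do not count as replicates. How often the coverage of other placed windows lies this way was not computed. In the windows on chromosomes 11 and 17, with pair ratios of 0.896 and 1.02, the groups overlapped. On chromosome 11 the values were 32.46, 34.2, 28.0 and 32.50 times the autosomal mean (FGR to control ratio 0.907), with 1 FGR value just above the lower control. For the one on chromosome 17 they were 40.2, 35.3, 43.9 and 34.6 (ratio 1.04). Whether the lower coverage goes with the 234-bp period was not tested.

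The end of GL456392 resembled the array as well. Its 31 CpGs past position 22000 had a pair ratio of 6.47 and 220 to 250.1 reads per CpG. Their level was 81.3%, 81.6%, 80.9% and 81.0%, against 68.9%, 68.9%, 69.9% and 72.0% in the 323 CpGs before them, where coverage was 1.001 to 1.17 times the autosomal mean. Coverage of this end was 28.7, 29.0, 34.5 and 26.8 times the autosomal mean, with FGR values on both sides of the controls, unlike the array of chrUn_JH584304. The difference between these 2 repeats was not tested.

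Pooled by reads, the contigs stood at 78.6% and 78.7% in the control libraries and 77.8% and 77.6% in the FGR libraries. The groups did not overlap, with a difference of -0.939 points between 78.6% ± 0.0552 and 77.7% ± 0.0865 (SD, n = 2 each; exact permutation p = 0.333). Autosomes of the same libraries stood at 76.1%, 76.5%, 74.8% and 75.7%, a difference of -1.05 points with the groups apart as well (exact permutation p = 0.333). At the 4210 CpGs listed in every library the contig difference was -0.913 points.

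The size of the pooled difference depended on how the CpGs were weighted. The array held 82.0%, 80.04%, 78.0% and 75.9% of the contig reads, and it was the more methylated stretch. When each of the 4210 CpGs was given a common weight in all 4 libraries, the levels were 78.3%, 78.5%, 78.1% and 78.3%. The groups then overlapped and the difference was -0.191 points (exact permutation p = 0.667). With every shared CpG counted once the difference was -0.697 points (exact permutation p = 0.333). Over all listed contig CpGs counted once it was -0.646 points, and the groups did not overlap (exact permutation p = 0.333). With common weights the groups still did not overlap in the stretch before the array, at 63.7%, 63.8%, 62.8% and 63.2% (-0.773 points; exact permutation p = 0.333). They did not overlap either at the 2563 shared CpGs of the other contigs, at 69.5%, 69.99%, 68.9% and 68.95% (-0.798 points; exact permutation p = 0.333). In the array they overlapped (-0.0523 points; exact permutation p = 0.667).

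**Figure D4:**
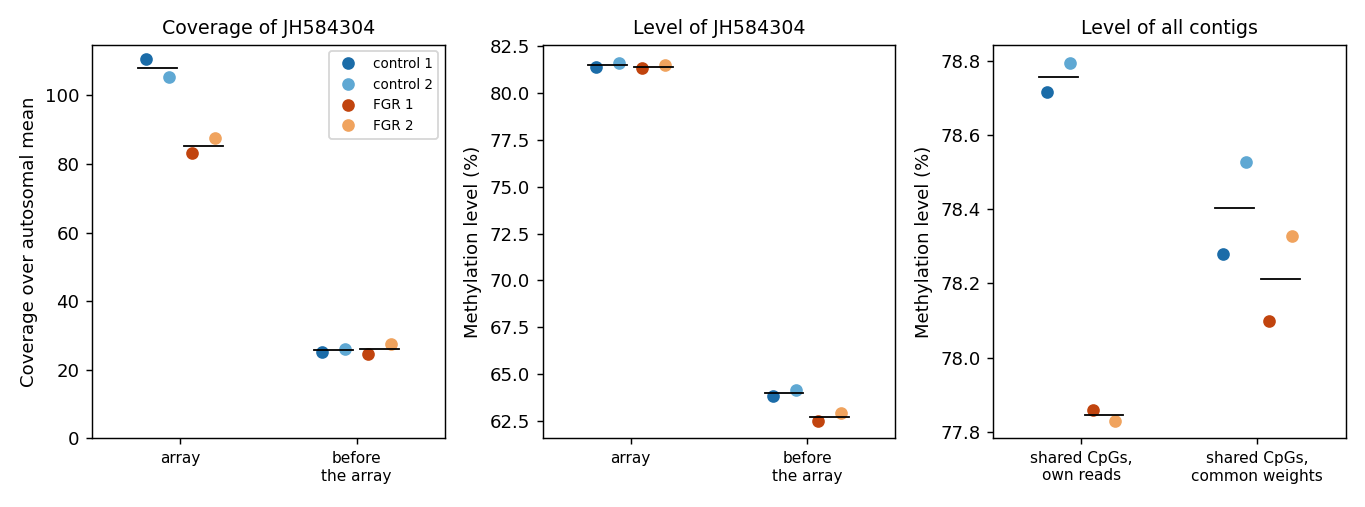
Coverage relative to the autosomal mean (left) and methylation level in percent (middle) of the array of chrUn_JH584304 and the stretch before it, and level of the 4210 shared contig CpGs weighted by each library's own reads or by common weights (right). Points are libraries and black lines are group means; the shared-CpG difference of -0.913 points becomes -0.191 with common weights.

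The contigs lay above the autosomes with the array and below them without it. All contigs pooled lay 2.52, 2.20, 2.97 and 1.98 points above the autosomes of the same library (mean 2.42; exact sign-flip permutation p = 0.125, the smallest that 4 libraries allow). Without the array they lay below them, by a mean of -9.91 points, and without chrUn_JH584304 by -5.35 points, each in 4 of 4 libraries (exact sign-flip permutation p = 0.125 for both).

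The random contigs of chromosome 1 (GL456210, GL456211, GL456212 and GL456221) were alike. Together they stood at 66.7%, 66.5%, 66.1% and 65.5%, with a difference from chromosome 1 of -9.82 to -8.497 points. Their coverage was 1.64 to 1.71 times the autosomal mean. Within the set, GL456210 was highest in 3 libraries, at 69.3%, 67.3%, 68.1% and 66.5%. GL456221 was lowest in 3, at 64.3%, 63.5%, 65.7% and 64.5%. The placed genes Sp110 and Sp140 on chromosome 1 belong to the speckled-protein family of chromatin readers. Their levels over the whole gene were 63.6% to 67.0% and 65.9% to 68.0%. The coordinates of Sp110 and Sp140 overlap, so these levels are not independent. Their neighbour Sp100 stood at 75.6% to 80.7%.

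The random contigs of chromosome 4 were higher and more variable. They stood at 81.0%, 85.1%, 82.1% and 77.0%, above chromosome 4 in every library by 2.44 to 9.72 points. Most of their CpGs were on GL456216, at 83.3%, 87.8%, 89.1% and 79.0%, where the 2 FGR libraries lay on either side of the controls. Its 17 tiles had a median of 94.0% but a lowest tile of 43.6%, and 38 of its 638 CpGs were listed in all 4 libraries. The random contigs of chromosome 5 stood at 66.8%, 66.0%, 65.9% and 67.8%, with a difference from chromosome 5 of -10.04 to -7.60 points.

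Among the unplaced contigs with at least 50 CpGs in each library, GL456370 was the most methylated. It stood at 90.9%, 92.7%, 92.7% and 93.3%, and its 20 tiles lay between 83.0% and 98.0%. GL456378 was the least methylated, at 51.0%, 49.7%, 47.5% and 56.2%, with tiles from 30.1% to 79.0%. GL456239 stood at 59.8%, 61.3%, 61.0% and 57.8% with a coverage of 2.85 to 3.26 times the autosomal mean and a pair ratio of 0.952, so its CpGs showed no excess of pairs near 234 bp.

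**Figure D5:**
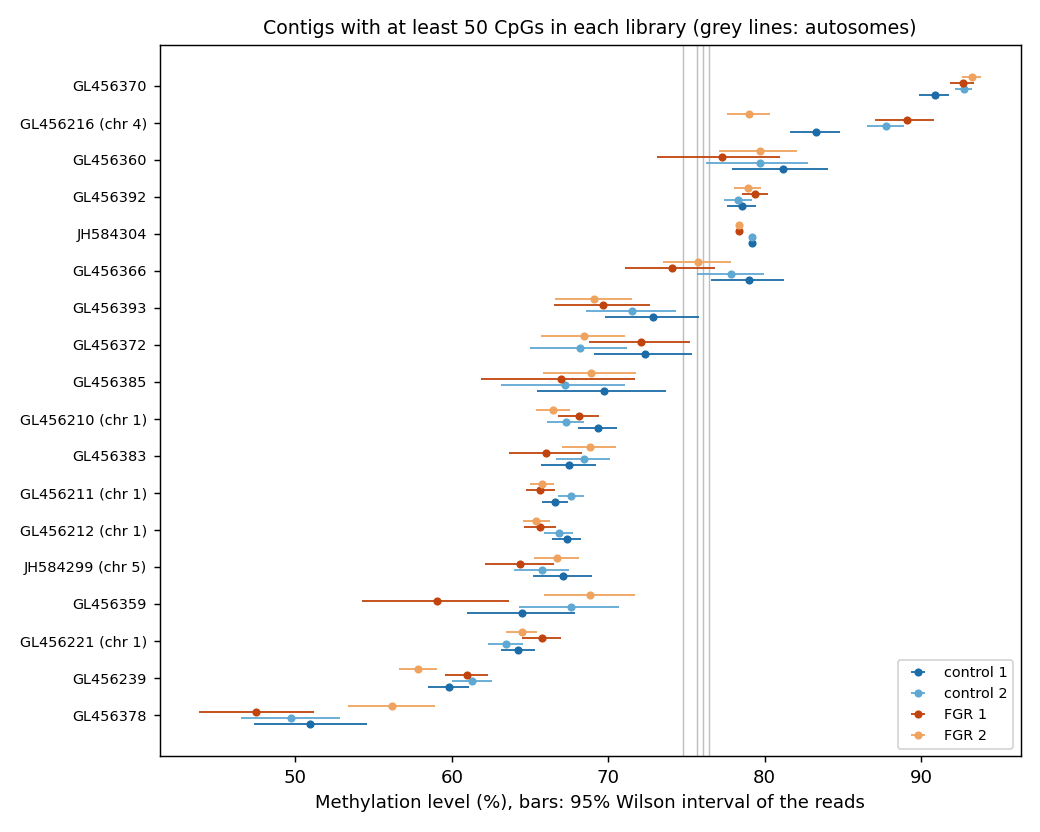
Methylation level in percent of the 18 contigs with at least 50 CpGs in each library, with 95% Wilson intervals that cover counting error only; names with a chromosome are random contigs, and grey lines mark the autosomal level of each library. GL456370 lies above 90% and GL456378 between 47.5% and 56.2%.

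The other named unplaced contigs lay between these. GL456360 stood at 81.2%, 79.7%, 77.3% and 79.7%, and GL456392 as a whole at 78.5%, 78.3%, 79.4% and 78.9%. GL456366 stood at 79.0%, 77.9%, 74.1% and 75.7%. GL456393 stood at 72.9%, 71.5%, 69.7% and 69.1%. In the last 2 both FGR values lay below both controls. GL456372 stood at 72.3%, 68.2%, 72.1% and 68.4%. GL456385 stood at 69.7%, 67.2%, 67.0% and 68.9%. GL456383 stood at 67.5%, 68.4%, 66.0% and 68.8%. In these 3 the ranges of the groups overlapped. GL456359 stood at 64.5%, 67.6%, 59.0% and 68.9%, with the FGR libraries on either side of the controls. JH584299, the 1 named random contig of chromosome 5, stood at 67.1%, 65.8%, 64.4% and 66.7%. Of the 18, 12 were below the autosomes in all 4 libraries and 5 were above. Of the 16 contigs with fewer CpGs, the 14 listed in all libraries had means from 61.5% to 85.8% over the libraries.

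Contig by contig, no difference between the groups passed. Of the 32 contigs listed in all libraries, 20 were lower and 12 higher in FGR, and in 13 the groups did not overlap (6 lower, 7 higher), where 33.0% of all tiles of the genome did not. Of the 21 contigs with at least 10 CpGs listed in every library, 16 were lower at those CpGs and 5 higher, and in 11 the groups did not overlap (8 lower). The smallest exact permutation p was 0.333, and the smallest after Benjamini-Hochberg adjustment over the 32 was 0.821. Among the 18 named contigs the differences ran from -3.54 to 1.51 points with a median of -0.944. GL456366 had the lowest of them (-3.54 points), yet at its 47 CpGs listed in all 4 libraries the difference was 3.03 points, with the groups apart in the opposite direction. GL456393 was lower by both measures (-2.82 points overall and -8.82 at 14 shared CpGs). GL456211 and GL456212 were lower in both FGR libraries by both measures, with -1.31 points at 573 shared CpGs and -1.65 points at 450. In GL456221 and GL456392 both FGR values lay above both controls, with differences of 1.25 and 0.734 points. At their shared CpGs the groups overlapped, with 0.745 points at 307 CpGs and -0.00994 points at 88.

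Contig tiles and single CpGs were tested within a fit over the whole genome. Of 563 contig tiles of 1000 bp, 0 were called (quasi-binomial test moderated with limma, calls being an adjusted p under 0.05 with a change of 10 points or more), against 0.0679% of all 552682 tiles. At an unadjusted p under 0.05 there were 4 contig tiles, where the whole genome had 2.43%. Of 2769 contig CpGs, 0 were called, against 0.0833% of all 34803 CpGs tested, and 12 had an unadjusted p under 0.05, where the whole genome had 1.34%. The log-ratio test of limma also called 0 of either, and 0 over the whole genome. It gave 8 contig tiles and 66 contig CpGs at an unadjusted p under 0.05, where the whole genome had 4.55% of tiles and 5.73% of CpGs.

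Of the 3 tiles of smallest p in each direction, most were shallow, and none passed (limma-moderated adjusted p = 1 for each tile and CpG named here). The tile chr1_GL456211_random:229001-230000 stood at 69.6%, 77.3%, 14.3% and 44.4% on 18 to 23 reads, with 1 CpG listed in all libraries. The tile chrUn_GL456366:44001-45000 stood at 67.6%, 79.2%, 92.0% and 96.2% on 25 to 68 reads. The tile chrUn_JH584304:35001-36000 was the deep one among them, at 78.4%, 80.04%, 74.0% and 75.5% on 1395 to 1656 reads over the same 8 CpGs, a difference of -4.47 points. The other 3 were chrUn_GL456383:13001-14000 (-26.1 points), chrUn_GL456392:7001-8000 (23.2 points) and chr1_GL456210_random:70001-71000 (19.8 points). They had 3, 1 and 3 CpGs listed in all libraries. At those CpGs the groups overlapped in the tiles of GL456392 and GL456210 and stayed apart in that of GL456383.

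Of the 3 CpGs of smallest p in each direction, 5 of the 6 lay on chrUn_JH584304, which held 1599 of the 2769 contig CpGs tested. The CpG at position 12334 of that contig stood at 92.2%, 87.1%, 78.4% and 79.0% on 148 to 167 reads. The CpG at 63593, also before the array, stood at 63.2%, 63.4%, 54.2% and 50.8% on 236 to 305 reads. Both were lower in both FGR libraries by about the same amount, -10.9 and -10.8 points. Within the array, the CpG at 102027 stood at 93.3%, 96.8%, 73.1% and 72.0% on 25 to 31 reads. The array CpGs at 108195 and 73292 were 2.51 and 4.96 points higher in FGR. The sixth, chr1_GL456212_random at 85623, stood at 17.2%, 25%, 50% and 58.6% on 22 to 29 reads, with both FGR libraries above both controls.

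The tiles of chrUn_JH584304 were also counted by stretch. Both FGR values lay below both controls in 29 of the 64 tiles before the array and in 12 of the 47 array tiles, where all tiles of the genome had 17.7% and the 111 tiles outside the contigs with at least 1000 reads in every library had 36.9%. Both lay above in 4 and 6 tiles, where all tiles had 15.3% and the deep ones outside the contigs 15.3%. The median difference was -0.851 points before the array, -0.0797 in the array and -0.161 in the deep tiles outside the contigs. Tiles of 1 contig share their libraries and do not count as replicates, and the difference between the 2 stretches was not tested.

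Single CpGs of chrUn_JH584304 repeated closely between libraries. Over the 1647 listed in all 4, the median gap was 2.21 points between the control libraries and 2.31 between the FGR libraries, and 2.16 to 2.32 points between libraries of different groups. The mean overdispersion, the spread between libraries of a group over that of counting alone, was 1.03. The groups did not overlap at 563 of the 1599 tested, where all CpGs tested had 30.9%. No pair of libraries held the same counts at more than 0.243% of these CpGs, so none was counted as a copy of another.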

How the data were processed

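The authors deposited 1 table per library with a coverage count and the percent of reads with C and with T for each CpG cytosine, listing only coverage of at least 5. Trim Galore 0.6.5, Bismark and methylKit 1.28.0 and the build mm10 are named in the submitters' processing notes, without parameters; the sources used here do not state how reads matching several places, or duplicates, were treated. From these tables, methylated reads were coverage times percent, the strands were summed per CpG, and a level is methylated over all reads. Contig members and lists were chosen with earlier results of these data known. Levels were compared by exact two-sided permutation. Tiles (1000 bp, with a minimum of 3 CpGs and 10 reads per library) and CpGs (at least 10 reads) of the whole genome were fitted with a quasi-binomial model, overdispersion moderated with limma 3.58.1 with a coverage trend, and adjusted by Benjamini-Hochberg. A first fit of the data kept the overdispersion at 1 or above after moderation; on simulated data this recovered few changes other than large ones in tiles, and it was then kept so before moderation, which recovered more. The second order also made false calls on simulated data where the overdispersion varied, and the first made none. With changes placed among all tiles, 43 of 92 calls were false, and with changes placed among contig tiles 53 of 138. Calls over the genome may therefore include false ones. The tiles and CpGs of contigs named are the 3 of smallest p in each direction; contigs are named if each library lists at least 50 of their CpGs. Coverage ratios use listed CpGs only, so they overstate shallow regions, and their autosomal reference follows library depth only in part. Levels at gene ends were those of the less methylated end, within 1500 bp outside and 500 bp inside. Some marker genes are not reported here. Alternatives are given in the closing section.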

Additional observations from a re-analysis of the deposited data

How the results depend on the processing

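Chosen after seeing the data were the split of chrUn_JH584304 at the repeat array, the 234-bp spacing, the low run, the common weights, the end of GL456392, the placed deep windows and the order of moderation. The pooled difference of -0.939 points became 0.0831 when every contig counted once. The distance to the autosomes of 2.42 points became -4.20 with every CpG counted once, -3.84 with coverage capped at 100 reads, -5.35 without chrUn_JH584304 and -9.91 without the array. The difference in relative coverage of -3.08 became 0.0077 without chrUn_JH584304 and 0.447 before the array alone. The cause of these reversals was not tested beyond what each setting leaves out or reweights. Leaving out each library gave -0.9998 to -0.877 points for the pooled difference, -0.952 to -0.873 at shared CpGs, 2.23 to 2.57 against autosomes and -4.69 to -1.47 for relative coverage. Contig tiles and CpGs called were 0 under all 10 alternatives of each. Calls over the whole genome went from 375 tiles and 29 CpGs to 5 and 0 with overdispersion kept at 1 after moderation. With the order used, simulated contig changes of 20 points were recovered in 1 to 4 of 50 tiles and 3 to 8 of 50 CpGs. On chrUn_JH584304 the mean overdispersion in the data was 1.33 for tiles and 1.03 for CpGs. The simulated spread between libraries was larger at such depth, so these recoveries do not describe that contig. The 0 calls alone do not show that changes of this size or smaller are absent. With a replicate block the pooled difference was -0.939 (exact sign-flip permutation p = 0.5), that at shared CpGs -0.913, and 0 tiles and 0 CpGs of contigs were called. The deviations of same-numbered libraries had r = -0.0848 over 1647 CpGs. With 2 libraries per group this is a single contrast, so it cannot decide whether same-numbered libraries share an origin or a preparation. The median depth of the contig CpGs tested was 22 reads outside chrUn_JH584304 and 234 on it, with 0 calls in both.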
